A study of Mus musculus with 14 samples.

Results

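Zfp385a, Ift27, Gm5514, Scrt2 and Spsb4 are 5 genes that are seldom named as markers of parvalbumin (PV) neurons but were abundant in RNA purified from these cells. They were picked from the 39017 gene identifiers of the count table because their level in translating ribosome affinity purification (TRAP) libraries of non-defeated mice was far above, and evenly above, that in input libraries. No numeric limit was set for this choice, so it says nothing about genes that were not picked. All 5 were among the 21298 genes that had enough counts to be tested. The choice used TRAP against input in non-defeated mice, and that contrast is therefore given only as a description. The differences between stress groups were tested. The values of Sus and Res come from no library of the choice, but the model estimated the spread from all 14 libraries together. Its p-values and intervals thus also rest on the ND TRAP and input libraries, on which the genes were chosen. The comparisons with ND in addition share the values of the 4 ND TRAP libraries, in which the genes were chosen for high and even values.

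Every mouse carried a Cre-dependent EGFP-L10a allele and PV-Cre, so that PV neurons made a ribosomal protein fused to green fluorescent protein. Mice were males of C57BL/6 background, aged 8 to 12 weeks when the behavioral work began. Non-defeated (ND) mice were never attacked, while the others went through chronic social defeat stress (CSDS), 10 days of attack by and contact with larger CD1 males. Defeated mice were called resilient (Res) or susceptible (Sus) from the ratio of times spent near a CD1 mouse and near an empty enclosure, with susceptible mice below a ratio of 1. TRAP samples came from 4 ND, 4 Res and 3 Sus mice, each from the 2 hippocampi of 1 mouse, and 3 input samples held total RNA of ND mice before TRAP. The labels give "translating RNA" as the molecule type of the input too, whereas the design text describes it as total RNA, and the design text was followed. Cre is made from the Pvalb gene and switches the tag on for good, so cells that expressed Pvalb only earlier in life keep it too.

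PV neurons are fast-spiking inhibitory cells that release GABA onto the cell bodies and first axon segments of principal neurons, and PV itself is a protein that buffers calcium. Zfp385a, also called Hzf, encodes a zinc finger protein that binds RNA and the transcription factor p53. Ift27 encodes a small GTPase of intraflagellar transport, the traffic along the primary cilium. Scrt2 encodes a zinc finger repressor of the Scratch family, which is made in neurons and binds E-box motifs in DNA. Spsb4 encodes a substrate receptor with a SOCS box that brings target proteins to a Cul5 ubiquitin ligase. Gm5514 is annotated as a processed pseudogene, a copy of a spliced messenger RNA put back into the genome, and RefSeq names it Ldhb-ps after Ldhb, the B subunit of lactate dehydrogenase.

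In GRCm38 (mm10), Zfp385a (ENSMUSG00000000552) lies on the minus strand at chr15:103313895-103340093. Ift27 (ENSMUSG00000016637) lies on the minus strand of the same chromosome at chr15:78159463-78174107. Scrt2 (ENSMUSG00000060257) lies on the plus strand at chr2:152081529-152095802. Spsb4 (ENSMUSG00000046997) lies on the minus strand at chr9:96943482-97018843. Gm5514 (ENSMUSG00000045104) is a single exon of 1002 bases on the plus strand at chr19:21937380-21938381. Spsb4 alone overlaps another annotated gene, the antisense transcript Gm16010, over 2878 bases, and the cDNA kit did not keep the strand.

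The sequence of Gm5514 bears on how its counts can be read. Over its whole length it lines up without a gap with the coding sequence of Ldhb (ENSMUSG00000030246), which lies on the minus strand at chr6:142490249-142507957. The 2 sequences differ at 20 of 1002 positions, an identity of 98.0%, and 17 of these differences fall on the last base of a codon of Ldhb. None of the 334 codons of Gm5514 in the frame of Ldhb is a stop codon. Reads were 150 bases long before trimming, and each of the 853 windows of this length holds at least 1 difference. In 270 windows (31.7%) there is exactly 1, and the longest identical run is 148 bases. A read trimmed to 148 bases or fewer can thus be the same in both genes. The first 150 bases of Gm5514, at chr19:21937380-21937529, are shown with the matching part of Ldhb, from the start codon into exon 3 of its 8 exons. This window holds as many differences as any other, 5, and the bases that differ are in capitals (GENCODE transcripts, GRCm38, 5′ to 3′ on the strand of each gene).
Gm5514: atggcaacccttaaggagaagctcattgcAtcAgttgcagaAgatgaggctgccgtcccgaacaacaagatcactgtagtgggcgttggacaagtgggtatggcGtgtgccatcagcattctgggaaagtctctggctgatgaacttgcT
Ldhb: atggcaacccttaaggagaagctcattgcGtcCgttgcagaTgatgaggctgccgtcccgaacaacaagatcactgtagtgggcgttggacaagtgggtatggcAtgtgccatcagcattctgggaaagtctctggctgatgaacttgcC
None of the other 4 genes had such a copy. The closest match of Scrt2 was its paralog Scrt1, with 84.4% identity over 499 bases, and that of Zfp385a was Zfp385c, with 71.5% over 270 bases. Ift27 had no match of at least 150 bases, and the closest match of Spsb4 was the overlapping Gm16010, with 100% over 572 bases.

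Library totals were 72098582 to 94726962 counts in ND TRAP, 75325264 to 87316567 in Res, 73348628 to 77566993 in Sus and 64110214 to 80063224 in input. The genes had between 439 and 24028 counts in a library. Levels are given as CPM, counts scaled to library size and normalized with TMM factors, in the order of the sample numbers. The cell type of the label was checked with its markers. All 10 PV interneuron markers were higher in ND TRAP than in input, and their summed level was 4281 to 4628 CPM in ND TRAP against 605 to 714 in input. All 8 markers of excitatory neurons, 5 of 5 of oligodendrocytes and 5 of 5 of microglia were lower in TRAP, and no marker of these lists was at 0 in every TRAP library. Of 5 astrocyte markers, 4 were lower. The lists were not all depleted: of 8 markers of other interneurons, 5 were lower and 2, Sst and Npy, were higher, with log2 fold changes of 1.61 and 2.79. In the endothelial list 1 of 4 was higher and in the thalamus list 2 of 8 were, with none lower in either. Where TRAP groups of such bulk samples are compared, fewer cells of a type and less RNA per cell cannot be told apart. Pvalb itself had 1464 ± 134 CPM (SD, n = 4) in ND TRAP and 25.4 ± 6.03 (SD, n = 3) in input.

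Zfp385a had the highest counts of the 4 protein-coding members. Its level in input was 30.8, 31.0 and 39.2 CPM, and in ND TRAP it was 258, 261, 246 and 240 CPM. In Res it was 261, 227, 269 and 267 CPM, and in Sus it was 212, 186 and 187 CPM. All TRAP libraries were far above input, and the 3 Sus libraries were below every ND and Res library. The mean in ND TRAP was 7.46 times that in input, a log2 fold change of 2.90 (standard error 0.11), at place 223 of 21298 genes.

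Ift27 had 28.2, 27.2 and 29.2 CPM in input and 192, 186, 178 and 179 CPM in ND TRAP. Res libraries had 180, 158, 179 and 176 CPM, and Sus libraries had 180, 214 and 158 CPM. The 3 TRAP groups overlapped, and the Sus group held both the highest and nearly the lowest of the 11 TRAP values. The ND TRAP mean was 6.51 times the input mean, a log2 fold change of 2.703 (standard error 0.10), at place 279.

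Scrt2 had 16.3, 16.7 and 16.9 CPM in input and 88.4, 90.8, 77.9 and 78.9 CPM in ND TRAP. Its level was 88.4, 78.0, 86.9 and 81.6 CPM in Res and 88.2, 70.0 and 73.8 CPM in Sus. Here too the TRAP groups overlapped. The ND TRAP mean was 5.05 times the input mean, a log2 fold change of 2.34 (standard error 0.10), at place 439.

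Spsb4 was the scarcest member, with 5.97, 6.22 and 7.45 CPM in input and 52.8, 50.0, 55.6 and 56.6 CPM in ND TRAP. Res libraries had 57.4, 49.4, 48.9 and 53.9 CPM, and Sus libraries had 44.0, 54.6 and 38.4 CPM. Of the 3 Sus values, 2 were below all ND and Res values and 1 was among them. The ND TRAP mean was 8.21 times the input mean, a log2 fold change of 3.04 (standard error 0.13), at place 179. Gm16010, whose exons lie partly over Spsb4 on the other strand, had 0.95 CPM in input and 7.25 in ND TRAP, and without strand its reads in the shared part cannot be told apart from those of Spsb4.

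Gm5514 had the highest level in input, 59.9, 59.2 and 64.6 CPM, and 222, 240, 242 and 230 CPM in ND TRAP. Its level was 264, 241, 265 and 235 CPM in Res and 224, 232 and 228 CPM in Sus. The Sus values lay within the range of ND and below all Res values. With a ratio of 3.81 between ND TRAP and input and a log2 fold change of 1.93 (standard error 0.07), at place 698, it was the least enriched of the 5 genes.

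**Figure D1:**
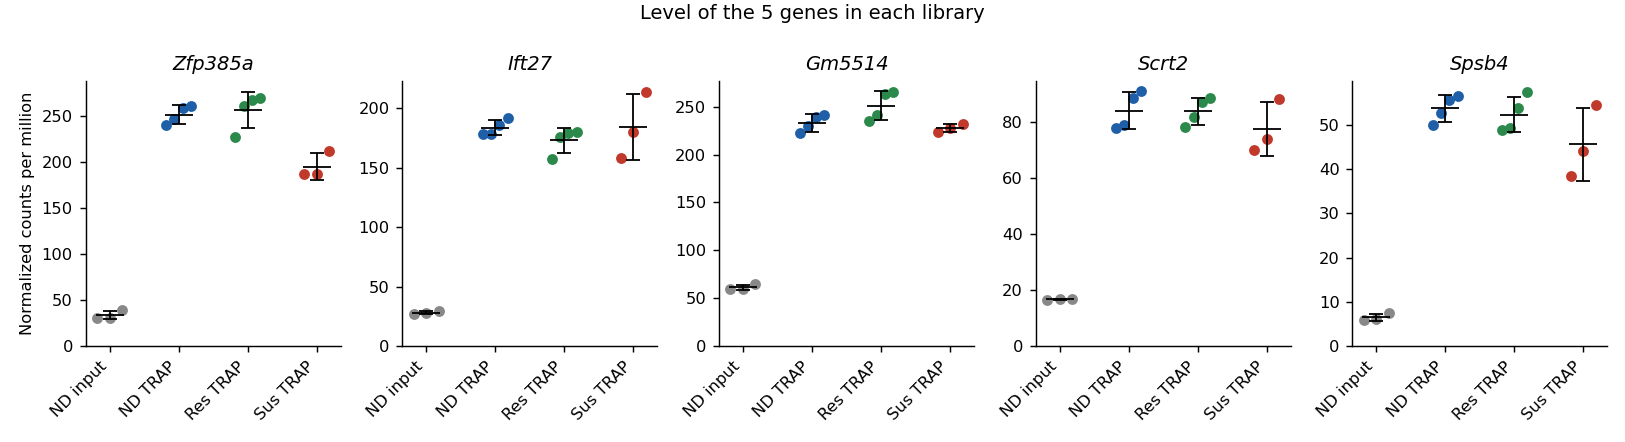
Normalized CPM (y axis, from 0) of the 5 genes in each of the 14 libraries (points), by group, with the mean and SD of each group as black bars. All TRAP points lie above the input points, and Zfp385a is the gene whose 3 Sus points lie below every other TRAP point.

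In each gene the lowest TRAP library of any group was at least 3.44 times the highest input library. Their order by fold over input was Spsb4, Zfp385a, Ift27, Scrt2 and Gm5514. Intervals of 2 standard errors on each side of the log2 fold change overlapped between all neighbors in this order but Scrt2 and Gm5514. In this contrast, on which the genes were chosen, 27.4% of all genes tested were higher and 27.6% lower in TRAP at an adjusted p under 0.05. Scaled by total counts alone, the log2 fold changes were lower, 1.74 in Gm5514 and 2.85 in Spsb4. Per kilobase of exon (RPKM), the order of levels in ND TRAP was different. Gm5514 had 233 ± 9.06 RPKM, Zfp385a 99.8 ± 3.98, Ift27 64.1 ± 2.27, Scrt2 24.7 ± 1.93 and Spsb4 11.99 ± 0.66 (SD, n = 4), with no overlap between neighbors in this order. The value of Gm5514 may include reads of its near copy Ldhb, whose part was not tested. Pvalb had 1407 ± 129 RPKM on the same scale.

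The question of the study was whether CSDS alters the RNA of PV neurons, and how resilient and susceptible mice differ. In edgeR's quasi-likelihood test with Benjamini-Hochberg adjustment over all genes, none of the 5 genes passed an adjusted p of 0.05 in Sus against Res, where 1.89% of all genes did (403 of 21298). None passed in Sus against ND, where 0.0376% did (8 genes), or in Res against ND, where 0% did. In the last comparison 933 genes had an unadjusted p under 0.05, the likelihood ratio test of edgeR called 4 genes and DESeq2 called 0. In a single test of any difference among the 3 TRAP groups, 0.0798% of genes passed (17 genes) and none of the members did, with adjusted p-values of 0.118 for Zfp385a, 0.445 for Gm5514, 0.481 for Spsb4, 0.705 for Scrt2 and 0.796 for Ift27.

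Zfp385a came closest to the threshold. Its mean was 195 ± 14.5 CPM (SD, n = 3) in Sus, 256 ± 19.4 (SD, n = 4) in Res and 251 ± 10.01 (SD, n = 4) in ND. The log2 fold change of Sus against Res was -0.39 (95% interval -0.60 to -0.19, edgeR adjusted p = 0.0515). Against ND it was -0.37 (95% interval -0.57 to -0.16, edgeR adjusted p = 0.170). In both comparisons the groups did not overlap, and the exact 2-sided permutation test gave p = 0.0286, the smallest value that 3 against 4 samples allow. Against ND, the choice of members for high and even ND values favors a lower Sus level and a lack of overlap. Sus libraries lay below all Res libraries in 7.44% of the genes tested, below all ND libraries in 4.40% and below both in 2.53%. Res and ND differed by 0.03 (95% interval -0.16 to 0.22, edgeR adjusted p = 1).

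The difference of Zfp385a had the same direction in both ranges of sample numbers. Among samples numbered 1 to 6, Sus was below Res by a log2 difference of -0.29 and below ND by -0.39. Among samples 7 to 11, which hold only 1 Sus library, the values were -0.52 and -0.38. Whether Zfp385a passed the threshold against Res varied over the alternatives, with adjusted p-values between 0.0160 and 0.145. It passed with the likelihood ratio test (0.0162) and with DESeq2 fitted to the 2 groups only (0.0160). It also passed with the sample number as a covariate in a fit of the TRAP libraries only (0.0247). These settings called 1099, 1004 and 1109 genes, against 403 in the main fit. Further passes came when genes under 10 counts in any library were dropped (0.0474, 542 genes called) and without Res sample 5 (0.0497, 196 called). In the other 11 of 16 alternatives it did not pass. Among them were the TRAP libraries only (0.102, 1 gene called) and edgeR on the 2 groups only (0.145, 0 called). Against ND, Zfp385a passed with DESeq2 fitted to the 2 groups only (0.0430, 113 genes called) but with no other alternative.

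Red blood cell genes moved with the same groups. Of 4 such markers, 3 were higher in Sus than in Res by the adjusted p and 2 were higher than in ND, and their summed level was 742 to 1003 CPM in Sus, 109 to 501 in Res and 98.0 to 201 in ND. In input the sum was 645 to 819 CPM, but the members were chosen for low values there. The low level of Zfp385a in input was thus fixed by the choice. None of the other marker lists had a gene that passed in these comparisons, but some sums varied widely. The thalamus list summed to 169.5 to 286.5 CPM in Sus, 156.8 to 944.4 in Res and 161.1 to 578.3 in ND. The endothelial list summed to 8.03 to 13.04 CPM in Sus, 4.18 to 18.24 in Res and 3.29 to 5.88 in ND. Summed PV markers were 3481 to 4895 CPM in Sus and 4027 to 4885 in Res. The part of RNA from red blood cells, endothelial cells or thalamus in the level of Zfp385a was not tested.

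Gm5514 did not overlap between Sus and Res, with Sus below. Of all genes tested, 7.44% had Sus below all Res libraries and 7.71% had Sus above them. The log2 fold change of Gm5514 was -0.14 (95% interval -0.29 to 0.01, edgeR adjusted p = 0.257), and the exact 2-sided permutation test gave p = 0.0571. Ldhb, its near copy, had a log2 fold change of -0.16 in the same comparison (95% interval -0.33 to 0.01, edgeR adjusted p = 0.261). Against ND, Gm5514 in Sus differed by -0.03 (95% interval -0.18 to 0.11) and Gm5514 in Res by 0.11 (95% interval -0.03 to 0.24).

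For Spsb4, Sus differed from Res by a log2 fold change of -0.20 (95% interval -0.45 to 0.05, edgeR adjusted p = 0.359) and from ND by -0.24 (95% interval -0.49 to 0.02, edgeR adjusted p = 0.399). The lower bounds correspond to 0.733 and 0.714 times the level of Res and ND. Single Sus libraries moved these values: without Sus sample 10 they were -0.087 and -0.125, and without Sus sample 4 they were -0.347 and -0.384. Among samples 1 to 6 the difference of Sus from ND was -0.07, and among samples 7 to 11, with the single Sus sample 10, it was -0.55.

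Scrt2 in Sus differed from Res by -0.11 (95% interval -0.31 to 0.08) and from ND by -0.12 (95% interval -0.32 to 0.08). Without Sus sample 2 these values were -0.221 and -0.225, and without Sus sample 4 they were -0.049 and -0.054. None of these changes in Spsb4 or Scrt2 brought an adjusted p under the threshold. Ift27 in Sus differed from Res by 0.09 (95% interval -0.11 to 0.28) and from ND by 0.003 (95% interval -0.19 to 0.20). The sign of the difference of Ift27 from Res turned to -0.03 without Sus sample 4, the highest library. In Res against ND, Scrt2 differed by -0.005 (95% interval -0.19 to 0.18) and Ift27 by -0.09 (95% interval -0.27 to 0.09). The comparisons with ND share the same 4 ND libraries, and those with Sus share the same 3 Sus libraries.

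**Figure D2:**
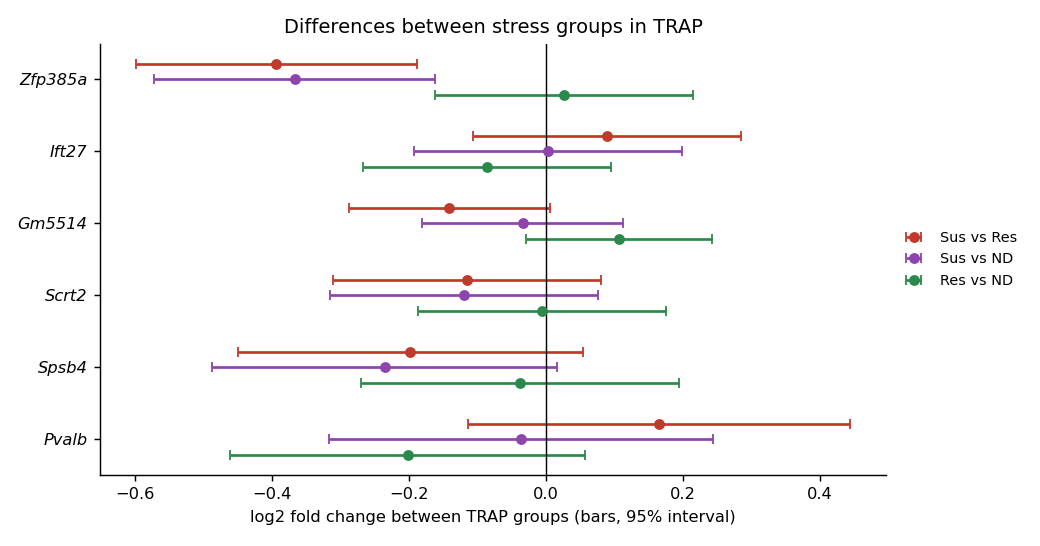
The log2 fold change (x axis) of each gene, and of Pvalb, between the TRAP groups of stressed and non-defeated mice, with 95% intervals of the edgeR model as bars. The intervals of Zfp385a in Sus against Res and in Sus against ND lie below 0, and those of the other genes include 0.

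The genes were chosen for even values, among others in the 4 ND TRAP libraries, so their spread is given as a description. After the group means were removed, the SD of log2 CPM over the 11 TRAP libraries was 0.0651 for Gm5514, 0.0940 for Zfp385a, 0.123 for Scrt2, 0.125 for Ift27 and 0.153 for Spsb4. Of all genes tested, 0.836% had a smaller SD than Gm5514 and 4.33% a smaller SD than Zfp385a, while 11.3%, 12.1% and 20.98% had a smaller SD than Scrt2, Ift27 and Spsb4. Genes with more counts vary less, and against genes of like level the share with a smaller SD was 4.78% for Gm5514, 19.0% for Zfp385a, 32.2% for Scrt2, 37.7% for Ift27 and 45.8% for Spsb4.

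Ift27 is a neighbor of Pvalb, which lies 17006 bases away on the same strand at chr15:78191114-78206400. Cre is made from the Pvalb gene in this line, so Ift27 lies next to an engineered allele in all groups, input included. Of the 5 tested genes within 150 kb of Ift27, 3 were higher in ND TRAP than in input and 1 was lower. Pvalb had a log2 fold change of 5.85 (edgeR adjusted p = 7.89e-11). Cacng2, which encodes stargazin, an auxiliary subunit of AMPA receptors, had 1.91 (edgeR adjusted p = 2.55e-05), and the antisense gene A730060N03Rik had 1.43 (edgeR adjusted p = 4.27e-05). Csf2rb2, a cytokine receptor gene of blood cells, was lower by a log2 fold change of -3.77 at under 1 CPM. The ratio of Ift27 to Pvalb counts was 115% ± 24.9 (SD, n = 3) in input but 12.6% ± 1.08 in ND TRAP (SD, n = 4), 13.6% ± 0.41 in Res (SD, n = 4) and 12.9% ± 0.44 in Sus (SD, n = 3). In input the ratio was between 91.3% and 141%, so that 2 of the 3 libraries held more Ift27 than Pvalb counts and 1 held fewer, whereas every TRAP library was at or below 14.1%.

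Over all genes 27.4% were higher, and the neighborhoods were not compared by a test. Of the 7 tested genes near Zfp385a, 1 was higher, Hnrnpa1, with a log2 fold change of 0.41, and none was lower. The only tested gene near Gm5514, Cemip2, was lower by -1.05. Near Scrt2, 4 of 8 were higher, among them Srxn1 (0.88) and Csnk2a1 (0.79), and Tcf15 was lower (-1.52). Near Spsb4, 2 of 6 were higher, the overlapping Gm16010 (2.93) and the pseudogene Gm10123 (0.69), and 2 were lower. Over all 27 tested neighbors, 10 were higher, 5 lower and 12 neither, and the median log2 fold change was 0.05.

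**Figure D3:**
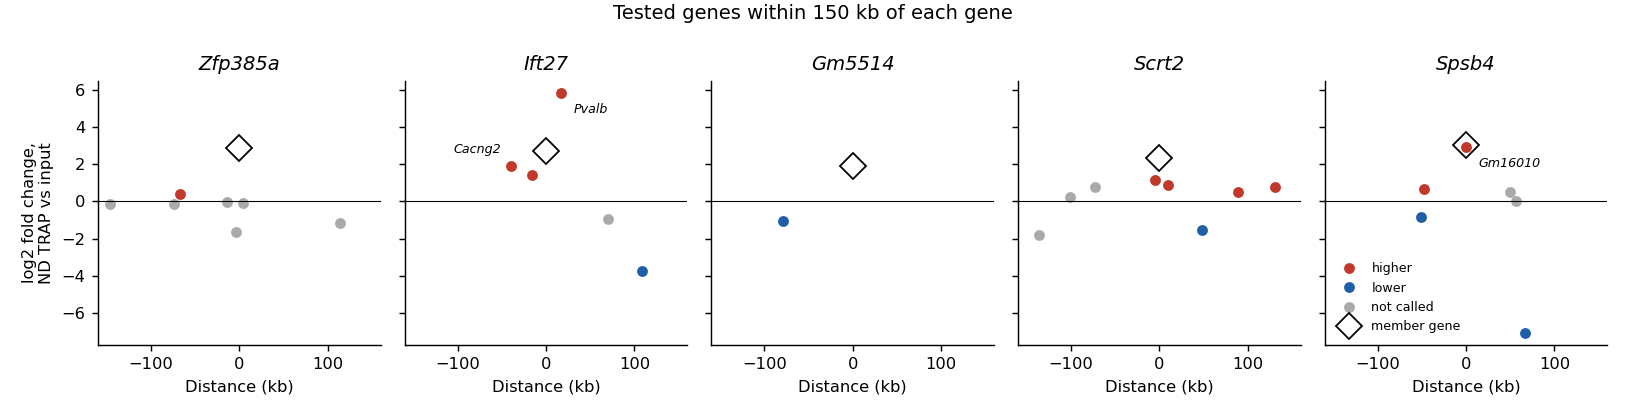
The log2 fold change of ND TRAP against input (y axis) for the tested genes within 150 kb of each member, by the distance between gene ends in kb (x axis, 0 for an overlapping gene). Open diamonds mark the members, and Pvalb, at 5.85, lies above Ift27, at 2.703.

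Gm5514 and Ldhb kept a like ratio of counts in all groups. The counts of Gm5514 were 9.81% ± 0.22 of those of Ldhb in input (SD, n = 3), 10.6% ± 0.32 in ND TRAP (SD, n = 4), 10.5% ± 0.35 in Res (SD, n = 4) and 10.7% ± 0.55 in Sus (SD, n = 3). All 11 TRAP libraries lay between 10.1% and 11.2%, and all 3 input libraries lay between 9.56% and 9.98%. Ldhb had 625 ± 44.0 CPM in input (SD, n = 3) and 2198 ± 143 in ND TRAP (SD, n = 4), a log2 fold change of 1.81, against 1.93 for Gm5514. With windows of 150 bases that differ at 1 base, the assignment of reads between these genes is uncertain, and the part of Ldhb reads in the counts of Gm5514 was not tested.

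**Figure D4:**
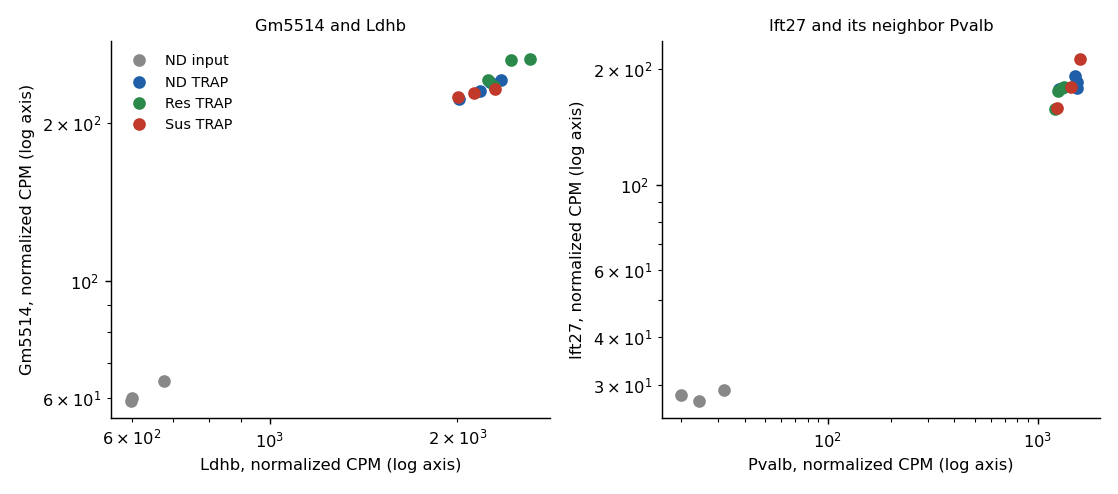
Normalized CPM in each library, on log axes, of Gm5514 against Ldhb and of Ift27 against Pvalb. Gm5514 counts are between 9.56% and 11.2% of Ldhb counts in every library, whereas Ift27 counts are 115% of Pvalb counts in input and 12.6% in ND TRAP.

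Family members were compared to see whether enrichment in TRAP was shared. Scrt1, the paralog of Scrt2, was higher in ND TRAP (31.9 ± 6.08 CPM, SD, n = 4) than in input (4.18 ± 0.50 CPM, SD, n = 3), with a log2 fold change of 2.93 (edgeR adjusted p = 1.46e-08). The related Snail repressors Snai1 and Snai2 were scarce, at or below 1.18 CPM in ND TRAP, and did not pass the test. In the Zfp385 family, Zfp385b was higher by 0.28 (edgeR adjusted p = 0.00887), and Zfp385c, at 1.34 CPM, had 1.002 (edgeR adjusted p = 0.0862). Zfp385d was not analysed here.

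Among 7 other genes of the SPSB family and its ligase, 5 were higher and 1 was lower in TRAP. Over all genes tested, 27.4% were higher and 27.6% lower. Spsb1, a paralog of Spsb4, was lower, with 52.5 ± 1.48 CPM in input (SD, n = 3) and 19.8 ± 3.56 in ND TRAP (SD, n = 4), a log2 fold change of -1.41 (edgeR adjusted p = 1.55e-06). Spsb2 and Spsb3 were higher by 0.56 and 0.28. Elob and Eloc, the elongins that bind the SOCS box, were higher by 1.43 and 0.65, and Rnf7, the ring finger partner of Cul5, by 0.40. Cul5 itself did not pass the test (-0.07, edgeR adjusted p = 0.709).

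Ift27 was chosen on the contrast with input, so only the other genes of its complex are counted. Of 17 other genes of intraflagellar transport complex B, 6 were higher and 3 lower, with Traf3ip1 (0.86) and Ift74 (0.60) at one end, Ttc26 (-0.75) and Ift80 (-0.58) at the other, and a median of 0.06. Hspb11, also called Ift25, whose protein pairs with Ift27, had 0.33 (edgeR adjusted p = 0.0430). In complex A, 1 of 6 genes was higher, Ift43 (1.43), and 4 were lower, among them Ift122 (-0.95) and Ift140 (-0.75). Among the BBSome genes and partners, whose cargo traffic out of the cilium depends on Ift27, 1 of 10 was higher, Arl6 (0.24), and 2 were lower, Bbs1 (-1.14) and Bbs9 (-0.62). No gene of these 6 lists passed the adjusted threshold in any comparison of stress groups. Over all genes tested, 27.4% were higher and 27.6% lower in ND TRAP than in input, and the median log2 fold change was -0.04. The lists were not compared with these shares by a test.

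**Figure D5:**
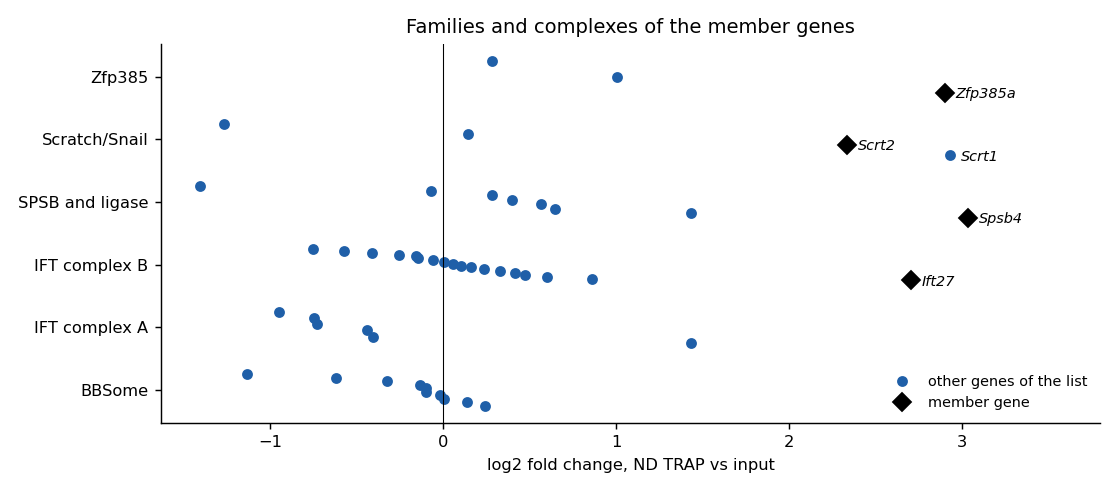
The log2 fold change of ND TRAP against input (x axis) for the tested genes of 6 families and complexes (rows), with members as diamonds. Scrt1, at 2.93, lies beside Scrt2, while the other genes of intraflagellar transport complex B lie between -0.75 and 0.86 and Ift27 at 2.703.

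The genes with the most similar profile over the 14 libraries were found by the root mean square (RMS) difference of log2 CPM after each gene's own mean was removed. For Gm5514 this was Ldhb, with an RMS difference of 0.06, followed by Cited2, a transcriptional coregulator (0.09). For Ift27 it was Kcns3, a subunit of voltage-gated potassium channels (0.12), then Ccdc184 (0.12) and the growth factor gene Fgf18 (0.12). For Spsb4 the list was Ccdc184 (0.14), Kcns3 (0.14) and Fam43a (0.16). For Zfp385a it was Ccdc184 (0.15), Spsb4 (0.16) and Fam43a (0.17). In ND TRAP, Res and Sus, Ccdc184 had 264, 256 and 232 CPM, and Fam43a had 131, 126 and 93.5 CPM. For Scrt2 it was Ankrd55 (0.11), the pseudogene Uqcrh-ps1 (0.12) and Mgst3, a glutathione transferase (0.14). The profiles include the step between input and TRAP, on which the members were chosen. They also include the Res and Sus libraries, so a like level in these groups is part of the match.

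The promoter of Zfp385a is shown because this gene was the nearest to the threshold under stress and because Scrt2, another member, encodes an E-box repressor. RefSeq (GRCm38.p6) gives 4 windows of 300 bases around the starts of 3 members, with 250 bases before each start, and none for Scrt2 or Gm5514 was used. The motif CAGGTG, searched on both strands, where it reads CACCTG on the other, was found in 1 of these 4 windows, 109 bases before the upstream start of Zfp385a, and in 20.2% of 32851 windows of all genes. The 250 bases before this start, chr15:103340087-103340336, minus strand, are printed with the motif in capitals.
Zfp385a: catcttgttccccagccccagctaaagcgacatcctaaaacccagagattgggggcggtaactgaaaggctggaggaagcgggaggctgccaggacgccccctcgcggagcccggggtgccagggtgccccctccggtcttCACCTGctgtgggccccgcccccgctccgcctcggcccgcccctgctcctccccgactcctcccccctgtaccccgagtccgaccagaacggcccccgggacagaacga
A match to these letters is a description of the sequence and not of binding.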

How the data were processed

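The authors trimmed reads with fastp, aligned them to mm10 with STAR (release 2.5.3a in the submitters' processing notes, another in the methods) and deposited raw counts per gene, for which the notes name HTSeq. Kits were SMART-Seq v4 and Nextera XT, which do not keep the strand. Identifiers were named from GENCODE mouse release 21 (37693 of 39017 matched, and the rest held 0.824% of counts). Replicates are mice, and groups come from the labels.

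Tests ran in edgeR 4.0.16 (R 4.3.3), with 14 libraries in 1 model, TMM, the default filter on low counts, quasi-likelihood tests, 2-sided, with Benjamini-Hochberg adjustment over 21298 genes. RPKM used the summed exon length. Permutation tests enumerated all regroupings of log2 CPM (prior count 2). Transcripts were compared with blastn 2.17.0. DESeq2 1.42.0 was among the alternatives. The steps were tested on simulated data.

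The members and gene lists were chosen with earlier results of these data known. Named genes were the members, Pvalb, tested genes within 150 kb, family lists (at most 2 per direction in lists of over 6 genes, and Hspb11, Spsb2, Spsb3, Rnf7, Cul5, Sst and Npy in addition after their values were seen) and the 3 genes of most similar profile, of which 1 is not reported here.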

Additional observations from a re-analysis of the deposited data

How the results depend on the processing

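No paired analysis was made. The groups share no sample numbers, and the labels do not say whether input and ND TRAP libraries came from the same mice. Genes called in Sus against Res were 403, and 1099 with the likelihood ratio test, 126 without a filter, 1 with TRAP libraries only, 1109 with the sample number as covariate in the TRAP libraries only, 0 with the 2 groups only and 1004 with DESeq2 on the 2 groups only. The covariate and DESeq2 thus each came with a change of the libraries fitted, here and in the other comparisons. Leaving out 1 library gave 6 to 1058 (without Res 3, 5, 7 or 8: 26, 196, 12 and 6, without Sus 2, 4 or 10: 7, 73 and 1058). The members called were 1, Zfp385a, with the likelihood ratio test, a filter of at least 10 counts, the covariate and DESeq2, and 0 to 1 when a library was left out. In Sus against ND, the 8 genes became 189 with the likelihood ratio test, 13 with RLE size factors, 16 with at least 10 counts, 0 with TRAP libraries only, 0 with the covariate in the TRAP libraries only, 5 with the 2 groups only and 113 with DESeq2 on the 2 groups only, and 0 to 6 when a library was left out, with 1 member called by DESeq2. In Res against ND, 4 genes were called by the likelihood ratio test. In any of the 3 TRAP groups, 641 were called by the likelihood ratio test and 0 with TRAP libraries only. Genes called in ND TRAP against input stayed between 10024 and 12696. The cause of these shifts was not tested.

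Values close to 0 changed sign. Ift27 in Sus against ND was -0.00029 with TRAP libraries only, -0.027 with the covariate and -0.0010 with the 2 groups only, and -0.119 to 0.0999 when a library was left out (-0.010 without ND 11, -0.012 without ND 9 and -0.119 without Sus 4). Ift27 in Sus against Res was -0.032 to 0.186 when a library was left out, below 0 only without Sus 4. Scrt2 in Res against ND was 0.0042 without a filter and -0.039 to 0.035 when a library was left out, above 0 without ND 1 (0.020), ND 6 (0.035), Res 5 (0.028) or Res 8 (0.0075). The log2 fold change of Zfp385a kept its sign in Sus against Res, -0.457 to -0.363, and in Sus against ND, -0.430 to -0.336. Gm5514 in Sus against ND lay between -0.056 (without ND 1) and -0.016 (without ND 9). The number of mice limits the precision.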

Other observations

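Members that varied together between mice were looked for among the 11 TRAP libraries, with group means removed from log2 CPM. Of 15 pairs of the 5 genes and Pvalb, 3 had a Benjamini-Hochberg adjusted p under 0.05 by Pearson's r and 0 by Spearman's rho. The count by rho was added after the data were seen. Permutation tests with 100000 resamples shuffled the 11 residuals freely. Removing the group means leaves fewer free values than 11, so these p-values tend to be too small. The pairs under the threshold are therefore given as a description.

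Zfp385a and Scrt2 had r = 0.82 (permutation p = 0.00225, adjusted p = 0.0236) and rho = 0.75 (permutation p = 0.00977, adjusted p = 0.147). Without the 2 libraries farthest from the median of Zfp385a, r was 0.80, and among samples 1 to 6 it was 0.91. Ift27 and its neighbor Pvalb had r = 0.79 (permutation p = 0.00315, adjusted p = 0.0236) and rho = 0.68 (permutation p = 0.0245, adjusted p = 0.184), with r = 0.72 without 2 libraries and 0.96 among samples 1 to 6. Ift27 and Spsb4 had r = 0.77 (permutation p = 0.00861, adjusted p = 0.0431) but rho = 0.49 (permutation p = 0.129, adjusted p = 0.646), and r was 0.57 without 2 libraries and 0.84 among samples 1 to 6. Samples 7 to 11 are too few for a value of their own. The genes of the first and last pair lie on different chromosomes, and the points of each pair share library and depth.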
